A study of Oryzias latipes with 27 samples.

Results

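The ovary of DMY-knockout XY medaka was followed from D10 to D30, that is from 10 to 30 days post hatch, by small RNA sequencing of its mature miRNAs. The comparison took the 3 D30 libraries of MT_Fe_Ov against its 3 D10 libraries, 6 of the 27 libraries of the series, chosen by genotype and stage alone. MT_Fe_Ov is the ovary of XY medaka (Oryzias latipes) whose DMY gene was disrupted with TALENs in a line that was kept for many generations. DMY is the Y-linked gene that starts male development in this fish, and XY fish without it develop as females. The deposited titles call these fish DMY-knockout males while their tissue and sex fields read ovary and female. Wild-type XX ovary (WT_Fe_Ov) and wild-type XY testis (WT_Ma_Te) were sampled at the same stages with 3 libraries each. DMY encodes a protein, and the small RNA counts hold no check of the knockout. At D10 the study collected the gonadal primordium together with neighbouring tissue, leaving out head and tail. The D30 libraries are labelled ovary. Stage and the tissue around the gonad therefore cannot be told apart in any D30 against D10 difference.

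A miRNA is a short RNA that guides silencing proteins to matching sites in mRNAs, mostly through the bases near its 5′ end that are called the seed. Each hairpin precursor yields a 5p and a 3p arm, usually in unequal amounts. Many miRNAs mark a tissue: miR-1, miR-133 and miR-206 are muscle miRNAs, miR-203 and miR-205 are typical of epidermis, miR-9 and miR-124 of neurons, miR-122 of hepatocytes and miR-202 of fish gonads. The let-7 family is known for developmental timing, and the fish miR-430 family for the clearance of maternal mRNAs in the zebrafish embryo. D10 to D30 spans the time when the medaka gonad differentiates.

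The study designed stem-loop qPCR assays for 6 mature miRNAs that are described here, and their forward primers are shown because they are the only sequences at hand that stand for these miRNAs. They are printed in lower case, 5′ to 3′; no part is marked. In the sequencing data 2 of these miRNAs rose from D10 to D30 (miR-30e-2-3p and, with a call that 6 alternatives lost, miR-7-5p), 2 fell (miR-10b-5p and miR-146a-5p) and 2 did not pass both thresholds (miR-214-3p and, with a lower call under some alternatives, miR-99a-5p).
miR-30e-2-3p: cgcgctttcagtcggatgt
miR-7-5p: cgcgtggaagactagtgatttt
miR-10b-5p: cgcgtaccctgtagaaccga
miR-146a-5p: cgcgtgagaactgaattccat
miR-214-3p: cgcgtacagcaggcacagac
miR-99a-5p: gcgaacccgtagatccgat

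The stages differed widely in miRNA counts. By the paper's mapping summary, total reads per MT_Fe_Ov library were similar at both stages. A far smaller share of them fell on miRNAs at D30. RPM is a share of the miRNA counts and does not show the size of that pool. Summed miRNA counts were 7289835, 5334458 and 8818687 in D10 replicates 1 to 3 and 107271, 54535 and 351194 in the D30 replicates. A count of 0 allows up to 3 counts, which is 0.340 to 0.562 RPM (reads per 1000000 miRNA counts) in a D10 library and 8.54 to 55.0 RPM in a D30 library. These limits cover counting error only. The D10 libraries held 414, 409 and 413 of the 437 miRNAs and the D30 libraries at most 246. After thinning the D10 libraries to 171000 counts each, 341, 340 and 351 miRNAs still had a count. Pearson's r of log2(RPM + 1) across miRNAs, which are not independent replicates, was 0.959 to 0.989 among D10 and 0.848 to 0.886 among D30 libraries. No replicate pair agreed within sampling noise (chi-square per degree of freedom of at least 49.4). Replicates are separate biological replicates per the labels.

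Of the 6 libraries, 3 stood apart in single miRNA groups. D30 replicate 3 held miR-9-5p, a neuronal miRNA, at 39437 RPM against 74.6 and 91.7 RPM in D30 replicates 1 and 2, and miR-96-5p, a miRNA of sensory hair cells, at 3613 RPM against 0 counts in both others. D30 replicate 2 held miR-122-5p, the hepatocyte miRNA, at 38416 RPM against 1380 and 552 RPM. In D10 replicate 3, miR-26a-2/3-ba-5p and miR-26a-1a-5p were at 0 counts, against 79037 and 89361 RPM and 3461 and 2336 RPM in the other 2 libraries. Without D10 replicate 3 the log2 change of miR-26a-1a-5p was -5.20 in place of -4.54, called lower either way by edgeR.

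From D10 to D30 the miRNA pool of MT_Fe_Ov turned over. Of 399 tested miRNAs, 62 were higher at D30 (15.5% of those tested) and 159 were lower (39.8%), together 55.4%, at an adjusted p of at most 0.05 and a change of at least 1 on the log2 scale (edgeR quasi-likelihood test, Benjamini-Hochberg). The leading miRNAs changed in part. At D10, miR-203b-3p, miR-181a-5p and miR-26a-2/3-ba-5p led and together held 19.02% ± 3.54 of the counts (SD, n = 3). At D30, let-7a-3-5p, miR-204-5p and miR-92a-3p led with 37.2% ± 3.70. miR-181a-5p and miR-26a-2/3-ba-5p were also among the 8 most abundant at D30, and neither was called. The D10 mean of miR-26a-2/3-ba-5p includes the 0 counts of D10 replicate 3. In RPM, the 3 D30 libraries all lay above the 3 D10 libraries in 54 tested miRNAs (13.5%) and all below them in 235 (58.9%). A miRNA at 0 in all D30 libraries counts as below once each D10 library has any count, however low. Of those tested, 119 were at 0 in all D30 libraries, so the 58.9% partly reflects detection.

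The low miRNA counts of the D30 libraries limit how many of the lower calls have a size. Of the 159, 60 had 0 counts in all D30 libraries, and 80 had at most 3 counts in each. For these 60 the fall is a lower bound, the mean D10 RPM over the mean D30 limit of 30.5 RPM. D30 replicate 2 raises that mean with its limit of 55.0 RPM. The limit of D30 replicate 3 alone, 8.54 RPM, would give larger bounds. The bound over the mean limit reached 2-fold in 21 and 10-fold in 4, and it was under 1-fold in 22, for which it gives no size. The 4 were miR-459-5p (at least 30.0-fold lower), miR-137-1-3p (at least 17.2-fold lower), miR-212b-5p (at least 16.9-fold lower) and miR-212-3p (at least 15.4-fold lower), chosen after their values were seen. The median log2 change over all tested miRNAs was -2.07, and -0.02 with the miRNAs at 0 set to their bounds. A bound under 1-fold enters as a positive log2 value, although it shows no rise. Medians with bounds can be pulled upward by this and by the use of the mean limit, here and below. Of the higher calls, 1 (miR-7a-4-3p) had at most 3 counts in every D10 library, and it rested on 1 D30 library at 37.3 RPM, the others being at 0. Among the calls, 29 higher and 43 lower miRNAs had RPM that did not overlap between the stages and at least 1000 RPM on average in the higher stage. In all, 108 miRNAs had such a mean in either stage. The following paragraphs draw mainly on the 29 and the 43.

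**Figure D1:**
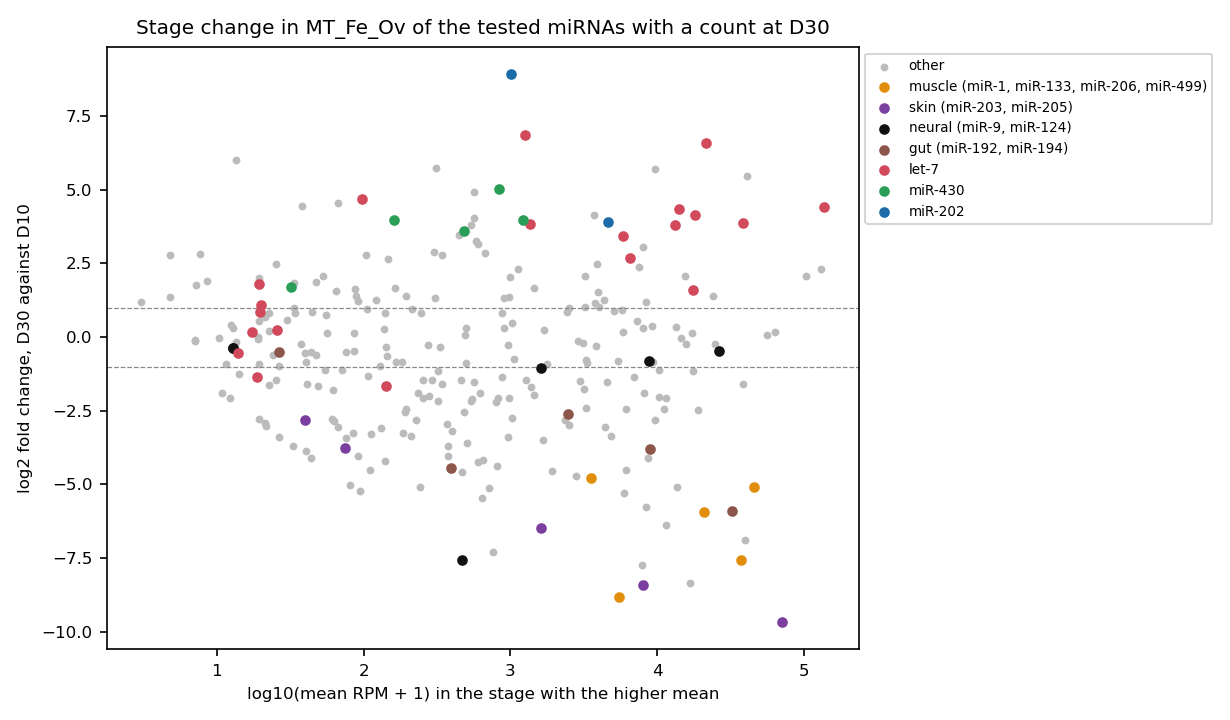
log2 fold change of D30 against D10 in MT_Fe_Ov (y axis) against the log10 of the higher stage mean in RPM plus 1 (x axis) for the 280 tested miRNAs with a count in at least 1 D30 library. Each point is a miRNA, coloured by family or tissue list. let-7, miR-430 and miR-202 points lie mostly above 0, muscle, skin and gut points mostly below 0, and the dashed lines mark a log2 change of 1 in either direction.

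Muscle and skin miRNAs were among the most abundant at D10 and low at D30. In bulk RNA, fewer cells of a type and less miRNA per cell cannot be told apart. The muscle list (miR-1, miR-133, miR-206 and miR-499, all 10 measured arms tested) had 9 lower and 0 higher calls, against 39.8% lower over all tested miRNAs. Its summed level was 125342, 123298 and 89201 RPM at D10 and 2946, 1779 and 757 RPM at D30. The median log2 change was -7.60 (-3.70 with members at 0 set to their bounds). miR-206-1-3p, a miRNA of skeletal muscle, had 51263, 52158 and 32384 RPM at D10 and 2181, 1284 and 268 RPM at D30, a log2 change of -5.10 ± 0.88 (SE; edgeR adjusted p = 3.1e-05). Every D30 library lay far below every D10 library, and D30 replicate 3 was the lowest. miR-133a-3p, which acts in skeletal and cardiac muscle, fell from 47183, 41726 and 22359 RPM to 224, 220 and 111 RPM. Its log2 change was -7.56 ± 0.40 (edgeR adjusted p = 6.3e-13). miR-133b-3p fell from 5904, 7107 and 3554 RPM to 18.6, 0 and 8.54 RPM, each under the mean D30 limit of 30.5 RPM. The slow-muscle and heart miRNA miR-499a-5p fell from 17091, 18560 and 27052 RPM to 364, 128 and 310 RPM. miR-1-3p had 3551, 3554 and 3552 RPM at D10 and 158, 147 and 59.8 RPM at D30.

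miR-203b-3p, the leading miRNA of the D10 libraries and known for the differentiation of epidermis, had 62107, 68736 and 80250 RPM at D10. At D30 it had 46.6, 110 and 74.0 RPM, a log2 change of -9.66 ± 0.66 (edgeR adjusted p = 3.3e-11), the largest fall among the miRNAs above 1000 RPM. miR-205-5p, an epithelial miRNA, fell from 7987, 8954 and 6951 RPM to 28.0, 0 and 19.9 RPM, each under the mean D30 limit of 30.5 RPM. The 19.9 RPM of D30 replicate 3 is above the limit of that library, 8.54 RPM. The single hairpin of miR-205-5p lies on chromosome 7 (22546335 to 22546413 in ASM223467v1) in no other annotated gene. The skin list had 4 of 5 tested arms lower and 0 higher, against 39.8% lower over all tested miRNAs. Its summed level went from 71420, 79001 and 89711 RPM to 131, 128 and 105 RPM.

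Epithelial miRNAs did not move as a block. miR-200a-3p, which keeps cells epithelial in mammals by holding down Zeb factors, fell from 30281, 33526 and 54259 RPM to 456.8, 165 and 196.5 RPM (log2 change -6.90 ± 0.61, edgeR adjusted p = 2.3e-09). miR-200b-3p, encoded beside it on chromosome 7, fell from 3660, 4618 and 6206 RPM to 531, 605 and 193.6 RPM. The related miR-429a-3p had 12708, 12532 and 18402 RPM at D10 and 17181, 10727 and 8904 RPM at D30, with overlapping groups and a log2 change of -0.03 ± 0.40 (edgeR adjusted p = 0.95). In the D30 libraries it held most of the epithelium list, whose sum was 18169, 11497 and 9294 RPM.

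Gut, cartilage and mesenchyme miRNAs were also lower in part. In the gut list (miR-192, miR-194 and miR-215), 5 of 6 tested arms were lower, against 39.8% over all tested miRNAs. The gut-list sum went from 48673, 38826 and 44786 RPM to 2815, 752 and 638 RPM. miR-192-5p, an intestinal miRNA whose hairpin lies next to that of mir194 on chromosome 14, fell from 33876, 28069 and 34966 RPM to 811, 147 and 362 RPM. The gut-list sum was highest in D30 replicate 1. Of 4 cartilage arms, 3 were lower and miR-455-3p was higher, against 39.8% lower and 15.5% higher over all tested miRNAs. miR-140-5p, a cartilage miRNA within wwp2 on chromosome 6, fell from 6955, 7521 and 11573 RPM to 289, 550 and 461 RPM. The 2 arms of miR-455 went in opposite directions, with miR-455-5p at a log2 change of -3.06 ± 0.25 and miR-455-3p at 1.35 ± 0.33. The mesenchymal miR-199-5p fell from 11927, 9402 and 12815 RPM to 158, 128 and 82.6 RPM, while its 3p arm, the more abundant one, had 25537, 22268 and 26254 RPM at D10 and 23119, 12047 and 18121 RPM at D30 (log2 change -0.22 ± 0.46, edgeR adjusted p = 0.70).

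The summed levels of the neural and sensory lists were low in D30 replicates 1 and 2 and not in D30 replicate 3. Of 24 tested arms of the neural list, 16 were lower and 0 higher, and of 9 sensory arms (miR-96, miR-182 and miR-183), 4 were lower, against 39.8% over all tested miRNAs, a share near that of the sensory arms. The neural sum was 33584, 36828 and 68275 RPM at D10 and 345, 623 and 51069 RPM at D30. The sensory sum was 12075, 13879 and 23035 RPM at D10 and 214.4, 110 and 10997 RPM at D30. The sums of D30 replicate 3 thus lay within or near the D10 range for both lists and those of the other 2 libraries far below it. This does not hold for every arm: 13 of the 24 neural and 4 of the 9 sensory arms had 0 counts in all D30 libraries. The median log2 change was -6.89 for the neural and -3.26 for the sensory arms. With members at 0 set to their bounds it was -0.71 and -0.89, where bounds under 1-fold enter as positive values. miR-9-5p had 20556, 22853 and 35975 RPM at D10, and its log2 change was -0.45 ± 1.09 (edgeR adjusted p = 0.73) with all libraries and -8.29 (edgeR adjusted p = 5.9e-12) without D30 replicate 3. miR-124-3p, which promotes neuronal identity, had 3309, 3749 and 19193 RPM at D10 and 18.6, 0 and 9656 RPM at D30. Without D30 replicate 3, 7 sensory arms and 16 neural arms were lower, and miR-182a-5p, at a log2 change of 0.25 with all libraries, was at -4.06. The part of neural tissue in D30 replicate 3 was not tested.

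miR-122-5p had 9337, 7903 and 9589 RPM at D10 and 1380, 38416 and 552 RPM at D30, a log2 change of 0.34 ± 0.79 (edgeR adjusted p = 0.73). Without D30 replicate 2 the change was -2.88 (edgeR adjusted p = 0.00028). That library also held miR-193a-2-5p at 1724 RPM and miR-365-2b-3p at 1504 RPM, against at most 131 RPM in the other D30 libraries. The log2 change of miR-193a-2-5p was 3.17 with this library and 0.0069 without it, where it was not called, and that of miR-365-2b-3p was 4.92 with it and 2.79 (edgeR adjusted p = 0.0014) without it. Blood miRNAs were present at both stages. miR-451-5p, the red blood cell miRNA, had 9618, 14569 and 25029 RPM at D10 and 15913, 27964 and 7779 RPM at D30, and none of the 3 erythroid arms was called. Among the 9 leukocyte arms 3 were higher and 4 lower, against 15.5% and 39.8% over all tested miRNAs. The myeloid miR-223-3p rose from 232, 265 and 263 RPM to 643, 1632 and 715 RPM (log2 change 2.05 ± 0.33), and miR-146a-5p, which restrains inflammatory signalling in mammals, fell from 724.3, 669 and 541 RPM to 18.6, 0 and 42.7 RPM.

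**Figure D2:**
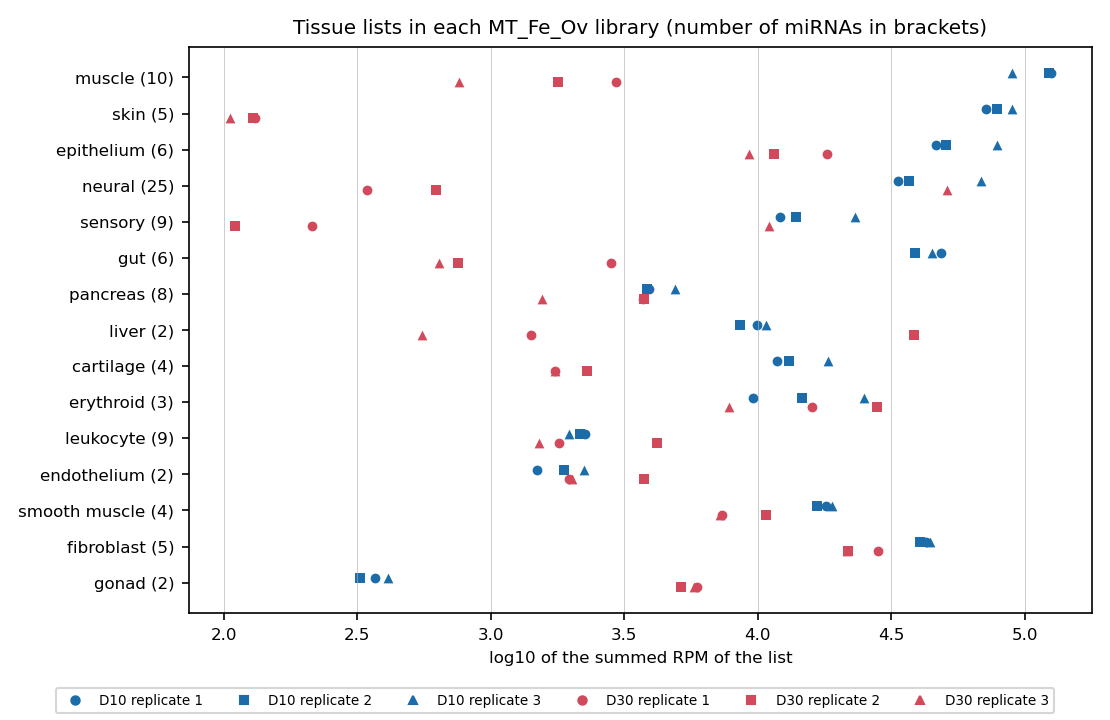
Summed RPM of 15 tissue lists on a log10 scale (x axis) in each MT_Fe_Ov library, D10 in blue and D30 in red, with the replicate shown by the symbol. Muscle, skin and gut sums of all 3 D30 libraries lie below all D10 libraries, the gonad list (miR-202) lies above, and D30 replicate 3 (triangle) lies apart in the neural and sensory lists and D30 replicate 2 (square) in the liver list.

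Taken over the 9 lists of tissues outside the gonad (muscle, skin, epithelium, neural, sensory, gut, pancreas, liver and cartilage), 47 of 72 tested arms were lower and 1 was higher, against 39.8% and 15.5% over all tested miRNAs. Of these 72 arms, 26 had 0 counts in all D30 libraries. Their median log2 change was -4.84 for all 72 and -1.48 with arms at 0 set to their bounds. The share of the 9 lists in all miRNA counts was 36.3%, 36.8% and 42.8% at D10 and 3.15%, 5.95% and 7.67% at D30. Because RPM is a share, a fall of these miRNAs raises all others. Outside these lists, 61 of 327 tested miRNAs were higher and 112 lower, with a median log2 change of -1.53 (0.30 with miRNAs at 0 set to their bounds). The 0.30 includes bounds under 1-fold, which enter as positive values, and it shows no rise. Refitted after removing the lists before scaling, 49 miRNAs were higher and 134 lower. How much of the turnover comes from neighbouring tissue was not tested.

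**Figure D3:**
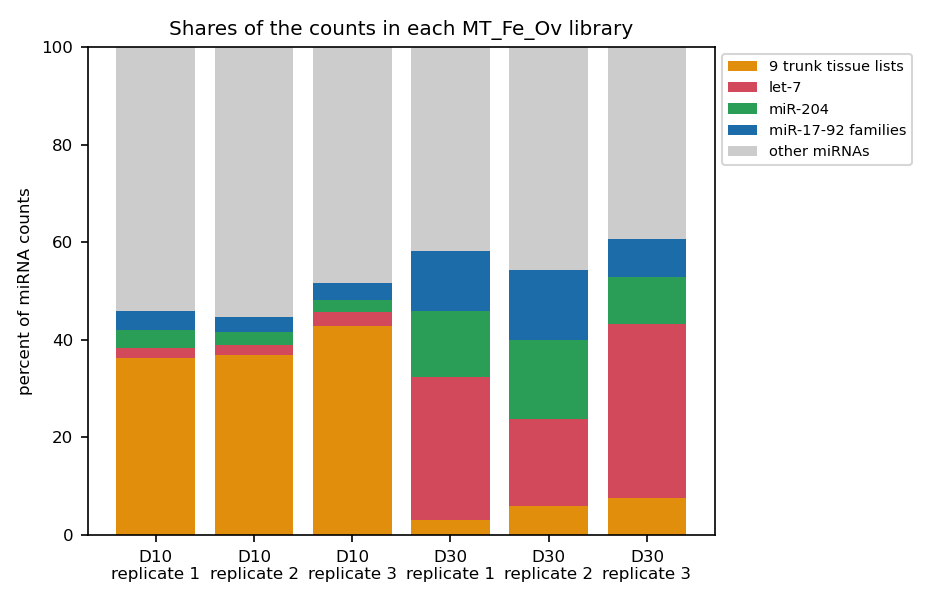
Percent of all miRNA counts (y axis) held by 4 groups of miRNAs and by all others in each MT_Fe_Ov library (x axis). The tissue lists fill 36.3% to 42.8% of the D10 bars and at most 7.67% of the D30 bars, and let-7 grows from at most 2.94% to between 17.8% and 35.7%.

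The let-7 5p arms rose together. All 10 measured 5p arms were higher at D30, with a median log2 change of 3.86, while 3 of the 12 tested 3p arms were higher and 2 lower. Over all tested miRNAs, 15.5% were higher and 39.8% lower. The family summed to 19987, 22064 and 29380 RPM at D10 and 293267, 177501 and 356678 RPM at D30. All 10 stayed higher under each scaling, with thinned D10 libraries and without any single D30 library. let-7a-3-5p, whose hairpin lies within ppara on chromosome 23 (6756775 to 6756869), had 6191, 7358 and 10226 RPM at D10 and 162942, 80499 and 169288 RPM at D30, a log2 change of 4.43 ± 0.45 (edgeR adjusted p = 1.9e-08). let-7e-5p rose most among the 5p arms, from 256, 245 and 369 RPM to 17619, 10287 and 36863 RPM (log2 change 6.59 ± 0.54, edgeR adjusted p = 6.4e-10). let-7d-5p, the 5p arm that rose least, went from 5795, 6519 and 7902 RPM to 20891, 16485 and 15430 RPM (log2 change 1.60 ± 0.39).

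The D30 libraries did not hold the members in the same proportions. let-7g-5p, within huwe1 on chromosome 7, had 33523, 15861 and 66610 RPM at D30 (from 2735, 3066 and 4424 RPM), and let-7j-5p had 16855, 9168 and 27896 RPM (from 1354, 1050 and 1473 RPM). Both were highest in replicate 3 and lowest in replicate 2. let-7b-5p showed the other order, with 11988, 21472 and 9006 RPM at D30 against 670, 729.03 and 810 RPM at D10. A 3p arm was among the largest rises: let-7a-5-3p went from 14.8, 9.56 and 10.7 RPM to 1203, 1614 and 940 RPM (log2 change 6.86 ± 0.38, edgeR adjusted p = 1.1e-12). Since let-7 members differ by few bases and the handling of reads that match several of them is not stated, the split between members is uncertain, and the family sum is less so.

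Both arms of miR-202, the gonad miRNA, rose. miR-202-5p went from 367, 320 and 410 RPM to 4931, 3942 and 4972 RPM (log2 change 3.90 ± 0.44, edgeR adjusted p = 3.4e-07). miR-202-3p went from 1.23, 2.25 and 3.40 RPM to 979, 1210 and 814 RPM, the largest rise among miRNAs above 1000 RPM (log2 change 8.92 ± 0.80, edgeR adjusted p = 2.5e-09). The D30 libraries were close to each other in both arms. The 5p arm exceeded the 3p arm 297-fold, 142-fold and 121-fold in the D10 libraries and 5.04-fold, 3.26-fold and 6.10-fold in the D30 libraries, and the 2 ranges did not overlap. In the D120 libraries of the same genotype the mean was 0 RPM for the 5p arm and 894 RPM for the 3p arm. The study's introduction, citing earlier work, describes miR-202-5p as the most common mature miRNA in medaka ovary. How reads that match several miRNA names were assigned is not stated, and its part in this 0 was not tested.

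Of the 11 measured miR-430 arms, 5 had enough counts to test and 4 of these were higher, against 15.5% over all tested miRNAs. miR-430c-3p went from 81.5, 89.8 and 119 RPM to 1072, 843 and 1728 RPM (log2 change 3.97 ± 0.50, edgeR adjusted p = 4.2e-07), and miR-430b-1-3p from 18.9, 33.7 and 45.7 RPM to 662, 532 and 1301 RPM (log2 change 5.03 ± 0.70). miR-430a-1-3p and miR-430a-4-3p rose by 3.59 and 3.96 on the log2 scale. miR-430d-2-3p, at 55.9, 0 and 37.0 RPM at D30, did not pass (edgeR adjusted p = 0.13). RefSeq lists 9 miR-430 hairpins on chromosome 4 between 1912895 and 1979010.

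**Figure D4:**
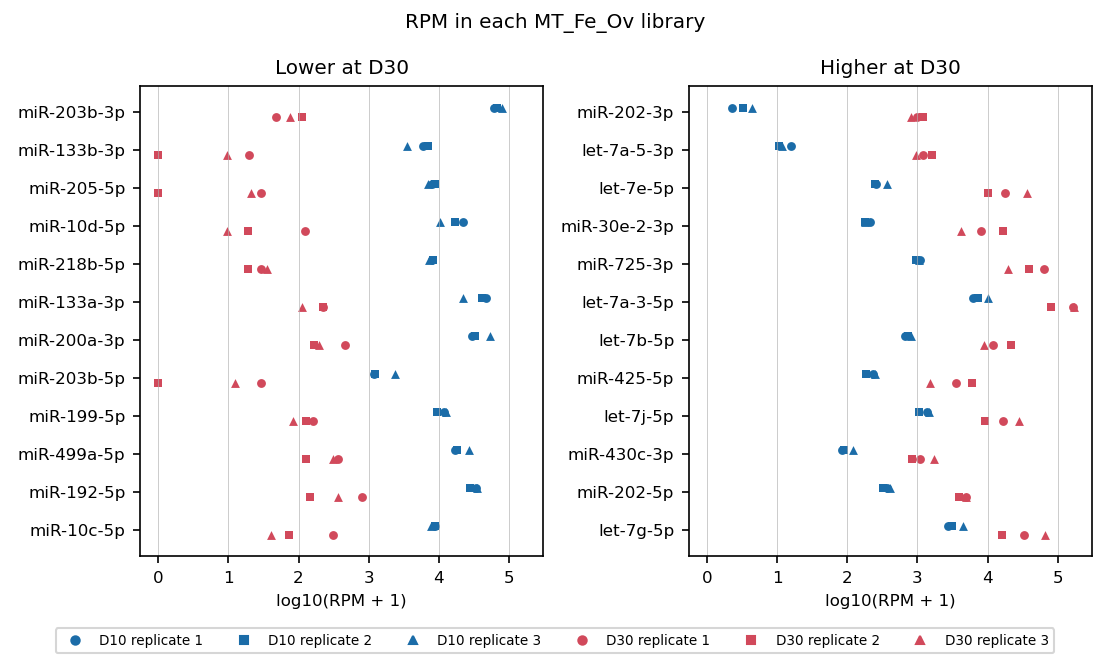
log10(RPM + 1) (x axis) of the 12 miRNAs with the largest falls (left) and the 12 with the largest rises (right) among called miRNAs with at least 1000 RPM on average and no overlap between stages, in each D10 (blue) and D30 (red) library of MT_Fe_Ov. In each row the 3 red and the 3 blue points are separated, for miR-203b-3p by 46.6 to 110 RPM against 62107 to 80250 RPM.

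Other abundant miRNAs also rose. miR-204-5p, the second most abundant miRNA at D30 and lying in an uncharacterised gene on chromosome 9 (16562225 to 16562320), rose from 36352, 24926 and 24749 RPM to 134528, 163620 and 96200 RPM (log2 change 2.32 ± 0.30). miR-725-3p, a miRNA known from fish, rose from 1085, 948 and 1047 RPM to 64761, 39094 and 19385 RPM (log2 change 5.48 ± 0.52, edgeR adjusted p = 6.7e-09). miR-30e-2-3p rose from 208, 179 and 175 RPM to 8017, 16650 and 4154 RPM (log2 change 5.69 ± 0.44), whereas miR-30e-5p fell by 1.60 on the log2 scale. miR-425-5p rose from 228, 181.5 and 244 RPM to 3589, 6088 and 1526 RPM. miR-100-5p went from 10324, 9091 and 10010 RPM to 23576, 31759 and 16737 RPM (log2 change 1.41 ± 0.23), while its close relative miR-99a-5p had 8993, 8663 and 10321 RPM and then 3039, 4254 and 5712 RPM (log2 change -0.86 ± 0.29, short of the fold threshold). miR-99a-5p was called lower with library totals (-1.10), after removing the tissue lists (-1.24) and without D30 replicate 3 (-1.38).

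The miR-17-92 families, whose clusters are known for promoting proliferation, held calls in both directions. Of 30 tested arms 3 were higher and 11 lower, near the 15.5% and 39.8% over all tested miRNAs. miR-92a-3p rose from 31117, 22958 and 24884 RPM to 109974, 129532 and 67988 RPM (log2 change 2.08 ± 0.25, edgeR adjusted p = 2.1e-07), and miR-25a-3p, which shares its seed family, from 1101, 1069 and 1047 RPM to 8716, 9040 and 6099 RPM. miR-19b-3p fell from 2221, 2148 and 2741 RPM to 289, 73.3 and 396 RPM (log2 change -2.80 ± 0.68), and miR-20a-5p from 920, 827 and 1185 RPM to 438, 36.7 and 99.7 RPM. The families summed to 38998, 31111 and 34321 RPM at D10 and 122997, 143302 and 76943 RPM at D30.

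The Hox-cluster miRNAs went in both directions. miR-10d-5p fell from 22052, 17315 and 10482 RPM to 121, 18.3 and 8.54 RPM (log2 change -8.34 ± 0.77), and miR-10c-5p from 8782, 8843 and 7667 RPM to 308, 73.3 and 39.9 RPM. miR-10b-5p, whose hairpin lies within hoxd3 on chromosome 21, fell from 17385, 14097 and 9495 RPM to 438, 532 and 188 RPM (log2 change -5.10 ± 0.36, edgeR adjusted p = 4.6e-11). miR-196a-5p instead rose from 5988, 4059 and 1795 RPM to 28032, 12139 and 5980 RPM, with the lowest D30 library just under the highest D10 library (log2 change 2.09 ± 0.52, edgeR adjusted p = 0.0014). In both groups replicate 1 was the highest and replicate 3 the lowest. Of the other abundant miRNAs, miR-218b-5p fell from 7967, 8177 and 7309 RPM to 28.0, 18.3 and 34.2 RPM while miR-218a-5p was at a log2 change of -1.12 ± 0.29 and -0.52 (edgeR adjusted p = 0.12) with thinned D10 libraries. The call of miR-218a-5p was also lost with DESeq2 (-0.94), RLE scaling (-0.94) and a minimum mean of 100 RPM (-0.72). It was lost as well without D30 replicate 2 (-0.77) and on the compared libraries alone (-1.02, edgeR adjusted p = 0.12).

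Among stromal and vascular miRNAs, miR-143-3p, a smooth muscle miRNA, had 17784, 16068 and 18426 RPM at D10 and 6134, 8197 and 6686 RPM at D30 (log2 change -1.14 ± 0.27). This fall lost its call with RLE scaling (-0.94), with DESeq2 (-0.94), with a minimum mean of 100 RPM (-0.69) and with thinned D10 libraries (-0.56, edgeR adjusted p = 0.11). miR-145-5p, whose hairpin lies next to that of mir143 on chromosome 10, had 287, 643 and 448 RPM and then 1193, 2585 and 547 RPM, a higher call with overlapping groups (log2 change 1.65 ± 0.49, edgeR adjusted p = 0.0061). miR-126b-3p of endothelium had a log2 change of 0.98 ± 0.23, just under the fold threshold, and miR-214-3p of 0.17 ± 0.70. Under some alternatives miR-126b-3p was called higher, such as DESeq2 (1.186) and RLE scaling (1.205). miR-21-5p fell from 41903, 37456 and 35882 RPM to 12473, 13203 and 8628 RPM (log2 change -1.60 ± 0.25, edgeR adjusted p = 7.3e-06). miR-34a-5p, miR-222a-3p, miR-135c-5p and miR-22a-1-3p fell by 1.35, 2.08, 2.45 and 2.49 on the log2 scale. Of these, miR-34a-5p lost its call with thinned D10 libraries (-0.80) and with a minimum mean of 100 RPM (-0.91). miR-7-5p rose by 1.19 ± 0.39 (edgeR adjusted p = 0.011), with D30 values of 6926, 4786 and 13243 RPM against 2990, 4820 and 6192 RPM, so the groups overlapped, and without D30 replicate 3 the change was 0.42 and not called. The call was also lost without D10 replicate 1 (0.99), with library totals (0.84), with a replicate block (0.98), after removing the tissue lists (0.78) and on the compared libraries alone (1.27, edgeR adjusted p = 0.11).

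The other families moved in part. Among them, 10 of 21 tested arms of the miR-23, miR-24 and miR-27 group and 5 of 12 of the miR-130, miR-301 and miR-454 group were lower with 0 higher, and 4 of 12 arms of the miR-99, miR-100 and miR-125 group were higher with 0 lower. Higher and lower calls were 4 and 2 of 10 tested arms for miR-30 and 3 and 1 of 9 for miR-181. They were 2 and 2 of 11 for miR-15 with miR-16, 2 and 4 of 6 for miR-221 with miR-222 and 3 and 2 of 11 for miR-29. For miR-10 with miR-196 they were 1 and 6 of 10, and for the fish miRNAs 2 and 16 of 33. miR-7 had 3 higher and 0 lower of 4, miR-204 1 and 0 of 2, and miR-148 with miR-152 1 and 1 of 3. Among families with 0 higher calls, 3 of 5 tested arms were lower in miR-135, 2 of 8 in miR-26 and 2 of 3 in miR-21. The same held for 2 of 4 in miR-34 with miR-449, 2 of 4 in miR-101, 2 of 6 in miR-22 and 2 of 3 in miR-218. In miR-33 it was 1 of 3 and in miR-103 with miR-107 1 of 2, while miR-31 had 0 calls in 2 tested arms. Of the tissue lists not yet counted, pancreas had 2 of 7 tested arms lower, fibroblast 3 of 5, liver 1 of 2, endothelium 1 of 2 and smooth muscle 2 of 4 with 1 higher. All of these stand against 15.5% higher and 39.8% lower over all tested miRNAs. Several families held arms with 0 counts in all D30 libraries, so their lower calls partly reflect detection. These were 19 of 33 tested arms of the fish miRNAs, 5 of 10 of miR-10 with miR-196 and 3 of 4 of miR-34 with miR-449, against 0 of miR-30 and miR-181.

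The leading members of the low families were mostly lower. miR-29a-3p, whose family targets collagen mRNAs in mammals, had 359, 868 and 1155 RPM at D10 and 131, 55.0 and 188 RPM at D30. miR-103-3p, miR-101b-5p, miR-301c-3p and miR-33-5p (within srebf1) fell by 1.35, 2.53, 3.20 and 2.45 on the log2 scale. With thinned D10 libraries miR-103-3p (-0.76, edgeR adjusted p = 0.10) and miR-33-5p (-1.67, edgeR adjusted p = 0.075) lost their calls, and on the compared libraries alone miR-103-3p (edgeR adjusted p = 0.060) and miR-301c-3p (edgeR adjusted p = 0.052) did. A minimum mean of 100 RPM also took the call from miR-103-3p (-0.91). miR-148a-3p was at 1.21 ± 0.53 (edgeR adjusted p = 0.058) and the lymphocyte miR-150-5p at 0.46 ± 0.47. Under some alternatives miR-148a-3p was called higher, such as DESeq2 (1.371) and thinned D10 libraries (1.977).

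Some abundant miRNAs did not change past the thresholds. miR-181a-5p had 51608, 66178 and 73272 RPM at D10 and 31686, 53067 and 91707 RPM at D30 (log2 change 0.17 ± 0.34, edgeR adjusted p = 0.67). miR-26a-2/3-ba-5p had 46182, 41460 and 66584 RPM at D30, and its log2 change was 0.07 ± 1.23 with the 0 count of D10 replicate 3 and -0.58 ± 0.30 (edgeR adjusted p = 0.099) without that library. miR-375a-3p, an endocrine miRNA, was at -0.30 ± 0.42, miR-27e-3p at 0.38 ± 0.27 and miR-16c-5p at 0.92 ± 0.26. Under some alternatives miR-16c-5p was called higher, such as DESeq2 (1.127), RLE scaling (1.129) and thinned D10 libraries (1.495).

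In 113 hairpin names both arms were tested: both were lower in 27, both higher in 3, and they were called in opposite directions in 8. In 23, neither arm was called. Over all tested miRNAs, 39.8% were lower and 15.5% higher. Some lower arms, such as let-7j-3p, had 0 counts in all D30 libraries, so the tally partly reflects detection.

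The D30 against D10 change was then set against that of the wild-type XX ovary. Neither ovary has a functional DMY, so the contrast is between XY knockout and XX wild-type fish. The 2 stage changes share no library. Over the 234 tested miRNAs with counts in each group, they correlated across miRNAs with Pearson's r = 0.753 and Spearman's rho = 0.747. Both stage changes share the mixed D10 tissue and lower miRNA counts at D30, and no p is given. The D30 counts were not equally low. D30 WT_Fe_Ov held 810120, 524342 and 617883 miRNA counts, with a mean limit of 4.76 RPM against 30.5 RPM in D30 MT_Fe_Ov. The part of this unequal depth in the differences between genotypes was not tested. Of 399 tested miRNAs, 100 had a different change (25.1%), 64 towards higher in MT_Fe_Ov and 36 towards lower, at an adjusted p of at most 0.05 and a difference of at least 1 on the log2 scale (edgeR interaction). In 33 of the 64 and 3 of the 36, 1 group had 0 counts in every library. Fitted on the libraries compared alone, 57 differed, and without D30 MT_Fe_Ov replicate 3, 69 differed, 36 higher and 33 lower.

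Of the 5 tested skin arms, miR-205-5p and miR-203b-3p fell further in MT_Fe_Ov than in WT_Fe_Ov, and the other 3 differences were not called. miR-205-5p had 2635, 2046 and 835 RPM in D30 WT_Fe_Ov against 28.0, 0 and 19.9 RPM in D30 MT_Fe_Ov, from D10 levels of 8039, 10166 and 10912 RPM in WT_Fe_Ov. The difference of changes was -6.03 ± 0.94 (edgeR adjusted p = 4.9e-05). The size of this difference is uncertain, since each D30 MT_Fe_Ov value is under the mean D30 limit of 30.5 RPM. The 19.9 RPM of replicate 3 is above the limit of that library, 8.54 RPM. miR-203b-3p had 1731, 2800 and 1560 RPM in D30 WT_Fe_Ov, and the difference was -4.42 ± 0.69 (edgeR adjusted p = 4.9e-05). The paralogues miR-184b-3p and miR-184a-3p differed by -4.41 ± 1.01 and -4.14 ± 1.01, with 1874, 2064 and 4258 RPM of miR-184b-3p in D30 WT_Fe_Ov against 252, 36.7 and 88.3 RPM in D30 MT_Fe_Ov. miR-31a-5p rose in WT_Fe_Ov from 171, 100 and 93.4 RPM to 10074, 10756 and 17477 RPM, but had 127, 118 and 159 RPM and then 224, 422 and 85.4 RPM in MT_Fe_Ov, a difference of -5.94 ± 0.86 (edgeR adjusted p = 2.3e-05). D30 WT_Fe_Ov held 52.4 times the mean D30 MT_Fe_Ov level of miR-31a-5p.

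In the other direction stood miR-204-5p. Each of the 3 D30 WT_Fe_Ov libraries had 0 counts of it, from 20311, 29392 and 27169 RPM at D10, against 131449 RPM on average in D30 MT_Fe_Ov, which is at least 27616-fold higher by the mean WT_Fe_Ov limit of 4.76 RPM. It was present in D30 WT_Ma_Te (67096, 62700 and 53670 RPM) and in D120 WT_Fe_Ov (11023, 16979 and 8811 RPM). How reads that match several miRNA names were assigned is not stated, and its part in such zeros was not tested. Among called miRNAs with a mean of at least 1000 RPM in 1 of the 4 groups, miR-9-5p, miR-124-3p, miR-9-1-3p and miR-182a-5p also differed towards higher. Without D30 MT_Fe_Ov replicate 3, miR-9-5p differed by -0.69, miR-124-3p by 7.37 (adjusted p = 0.49, edgeR), miR-9-1-3p by 0.21 and miR-182a-5p by 0.28, and none of the 4 was called.

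Against the stage change of the wild-type testis, 33.3% of the 399 miRNAs differed, 41 towards higher and 92 towards lower in MT_Fe_Ov. In 2 of the 41 and 27 of the 92, a group had 0 counts in every library. The split depended on the scaling: with RLE scaling it was 59 higher and 75 lower, and with DESeq2 64 and 75. The stage changes correlated with Pearson's r = 0.669 and Spearman's rho = 0.639 over 278 miRNAs. Here too the D30 depth was unequal. D30 WT_Ma_Te held 533474, 490031 and 303501 miRNA counts, with a mean limit of 7.21 RPM against 30.5 RPM in D30 MT_Fe_Ov. miR-202-5p rose in both but more in testis, from 155.2, 123 and 174 RPM to 138779, 139842 and 126583 RPM, and the difference was -5.73 ± 0.59 (edgeR adjusted p = 1.8e-06). D30 WT_Ma_Te held 29.3 times the mean D30 MT_Fe_Ov level of miR-202-5p. The stromal miR-143-3p rose in testis from 7402, 3005 and 6112 RPM to 79698, 68169 and 66165 RPM, while it was lower at D30 in MT_Fe_Ov, and the difference was -4.68 ± 0.39 (edgeR adjusted p = 1.2e-08).

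miR-153a-3p, miR-200a-3p and miR-19b-3p differed from testis by -5.66 ± 1.25, -4.68 ± 0.70 and -4.50 ± 0.93. miR-200a-3p had 4765, 3665 and 4867 RPM in D30 WT_Ma_Te against at most 456.8 RPM in D30 MT_Fe_Ov, and miR-19b-3p 5080, 5018 and 7957 RPM against at most 396 RPM. Towards higher in MT_Fe_Ov stood miR-124-3p, miR-9-5p, miR-9-1-3p, miR-182a-5p and miR-192-3p. The first 4 were not called in this direction without D30 MT_Fe_Ov replicate 3, where miR-9-5p differed by -1.94 and was called in the opposite direction (edgeR adjusted p = 0.0041). Without that library, miR-124-3p differed by -1.89, miR-9-1-3p by -8.46 and miR-182a-5p by 0.27, and none of these 3 was called. miR-192-3p had 802, 275 and 31.3 RPM in D30 MT_Fe_Ov and 3.75, 4.08 and 19.8 RPM in D30 WT_Ma_Te, a difference of 5.72 ± 1.66 (edgeR adjusted p = 0.01) that was 3.96 (edgeR adjusted p = 0.079) without D30 MT_Fe_Ov replicate 1.

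**Figure D5:**
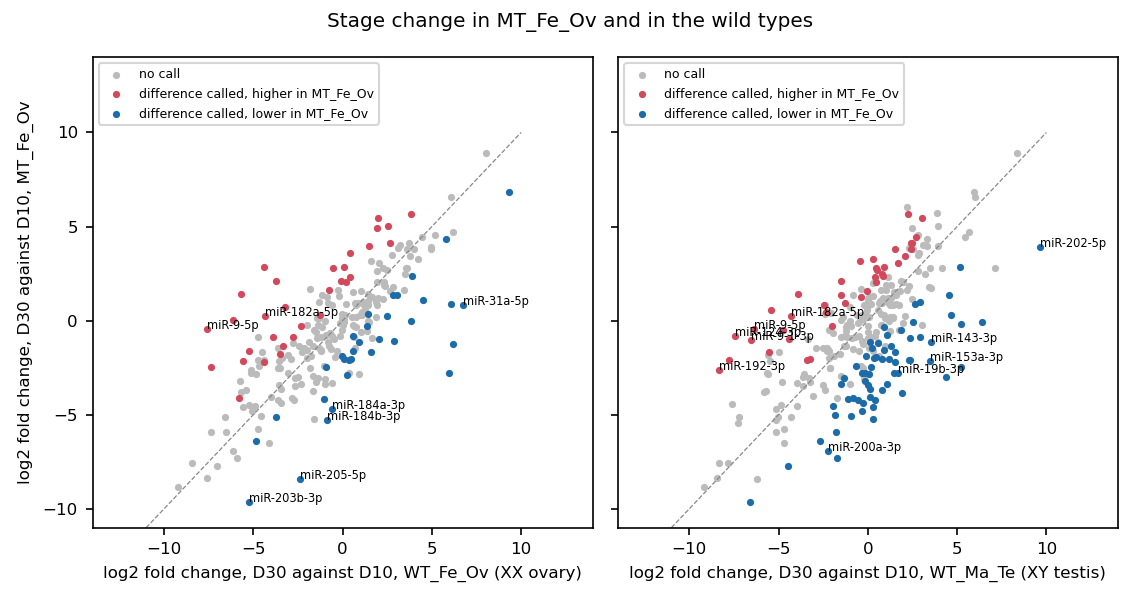
log2 fold change of D30 against D10 in MT_Fe_Ov (y axis) against that in WT_Fe_Ov (left, 234 miRNAs) and WT_Ma_Te (right, 278 miRNAs), for tested miRNAs with counts in each group. Points are miRNAs, coloured where the 2 changes differed by edgeR, the dashed line marks equal changes, and miR-31a-5p, miR-205-5p and miR-203b-3p lie below it on the left and miR-202-5p and miR-143-3p on the right.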

How the data were processed

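The deposited values are raw counts of reads on each mature miRNA. The authors kept reads over 17 nt with quality of at least 20, mapped them to ASM223467v1 with the mapper of miRDeep2 and counted them on 437 FishmiRNA miRNAs. How multi-matching reads were treated is not given in the sources used here. RPM was computed as count over summed miRNA counts times 1000000. A miRNA was tested if 3 or more of the 27 libraries had 10 or more counts. The fit used edgeR 4.0.16 (R 4.3.3), TMM scaling and 1 coefficient for each of 9 groups, and its quasi-likelihood F test. Stage changes were compared between genotypes by interaction terms. The code was tested on simulated data. Named miRNAs were the 8 most abundant per stage, 12 calls per direction with non-overlapping RPM and a mean of at least 1000 RPM, the leading member of each list, 5 calls per direction of each interaction, and those the study names. Lists followed miRNA numbers. Members and lists were chosen with earlier results of these data known. Hairpin coordinates are from RefSeq and were matched by name for 24 of 78 named miRNAs. Python 3.11.15 with pandas 2.3.3, numpy 2.4.6, scipy 1.17.1 and matplotlib 3.10.9 was used. Alternatives were DESeq2 1.42.0, other scalings and filters, thinning, a replicate block and leaving out replicates.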

Additional observations from a re-analysis of the deposited data

Results flagged for a closer look

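For 20 comparisons of a named miRNA the stage change of MT_Fe_Ov differed from that of a wild type by the edgeR interaction, which is why they are listed. Against WT_Fe_Ov, the log2 differences were -6.03 for miR-205-5p, -5.94 for miR-31a-5p, -4.42 for miR-203b-3p, -4.41 for miR-184b-3p, -4.14 for miR-184a-3p, 7.14 for miR-9-5p and 4.58 for miR-182a-5p. The D30 MT_Fe_Ov values of miR-205-5p were under the mean D30 limit, that of replicate 3 being above its own library's limit, so the size of its difference is uncertain. miR-204-5p, miR-124-3p and miR-9-1-3p were at 0 counts in D30 WT_Fe_Ov and averaged 131449, 3225 and 515 RPM in D30 MT_Fe_Ov. The last 2 means rest on D30 MT_Fe_Ov replicate 3, with 18.6, 0 and 9656 RPM of miR-124-3p and 0, 0 and 1546 RPM of miR-9-1-3p. Without it, the differences of miR-124-3p, miR-9-1-3p, miR-9-5p and miR-182a-5p from WT_Fe_Ov were not called. Against WT_Ma_Te, the differences were -5.73 for miR-202-5p, -5.66 for miR-153a-3p, -4.68 for miR-143-3p, -4.68 for miR-200a-3p, -4.50 for miR-19b-3p, 6.63 for miR-124-3p, 5.90 for miR-9-5p, 5.72 for miR-192-3p, 5.51 for miR-9-1-3p and 4.57 for miR-182a-5p. Those of miR-9-5p, miR-124-3p, miR-9-1-3p and miR-182a-5p were not called in this direction without D30 MT_Fe_Ov replicate 3, and that of miR-9-5p was then called in the opposite one (-1.94, edgeR adjusted p = 0.0041).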

How the results depend on the processing

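The 62 higher and 159 lower calls between D30 and D10 became 62 and 90 among miRNAs with a mean of at least 100 RPM and 53 and 178 with library totals, and at least 207 miRNAs were called with 1 replicate left out. The median log2 change moved from -2.07 to -1.95 with RLE, -2.33 with library totals and -1.01 with DESeq2. The 100 differences from WT_Fe_Ov became 57 on the libraries compared alone and 59 at an adjusted p of 0.01, and 69 to 114 with 1 replicate left out. With thinned D10 libraries they split into 73 higher and 21 lower, with the default filter of edgeR into 54 and 55, with a minimum mean of 100 RPM into 32 and 49, and with the trunk lists removed into 42 and 51. The differences from WT_Ma_Te, 41 and 92, became 82 at an adjusted p of 0.01, and 111 to 131 with 1 replicate left out. The 12 rising and 12 falling miRNAs were those with the largest changes among non-overlapping calls of at least 1000 RPM. All of them kept their calls under every alternative that could fit them, as did 43 of 53 named calls. Since they were chosen on these same data by those criteria, this is no independent support. With 1 replicate left out, the stage change of miR-182a-5p ranged from -4.06 (without D30 MT_Fe_Ov replicate 3) to 0.81 and that of miR-122-5p from -2.88 (without D30 MT_Fe_Ov replicate 2) to 0.89. Also without D30 MT_Fe_Ov replicate 3, the difference of miR-9-5p was lowest at -0.69 against WT_Fe_Ov (highest 7.73) and -1.94 against WT_Ma_Te (highest 6.48), that of miR-124-3p against WT_Ma_Te -1.89 (highest 7.97) and that of miR-9-1-3p -8.46 (highest 6.08). The deviations of same-numbered libraries correlated weakly and positively (0.097, 0.046 and 0.126), and those of differently numbered libraries at -0.136 to 0.053. These values do not decide whether the libraries are paired. The main fit did not take the numbers as pairs. With a replicate block, 213, 73 and 102 miRNAs were called in the 3 comparisons. The low miRNA counts at D30 limit every low miRNA. The limits of the D30 MT_Fe_Ov libraries ran from 8.54 to 55.0 RPM (mean 30.5 RPM). Near or under them the D30 level is uncertain, and a fall has at best a minimum size.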
